A study of Mus musculus with 21 samples.

Results

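The 10 genes described here build the major histocompatibility complex (MHC) class I molecule of the mouse and supply it with peptides. They are the heavy chains H2-K1 and H2-D1, the light chain B2m, the peptide transporter subunits Tap1 and Tap2, the loading factor Tapbp, the immunoproteasome subunits Psmb8, Psmb9 and Psmb10, and the transcriptional regulator Nlrc5. They were chosen by name as parts of this pathway and not by a rule on their values, though with earlier results of these data known. All 10 were found among the 12791 genes listed in each of 20 libraries. RNA was sequenced from slices of whole uterus of wild type mice of the inbred strain C57BL/6J. The mice were 5 weeks old (7 libraries), 8 weeks old (7 libraries) or aged (6 libraries), and no group carried a transgene or a deletion. All groups, the young ones included, had been primed with pregnant mare serum gonadotropin (PMSG), a placental hormone that acts like follicle-stimulating hormone, at 5 or 7.5 units and 48 hours before dissection. The labels do not say which animal received which dose, nor do they say that any animals were pooled.

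The libraries fall into an earlier set of 6 (replicates 1 and 2 of every group, the aged ones at 60 to 75 weeks) and a later set of 14 (replicates 3 to 7 at 5 and at 8 weeks, and aged replicates 4 to 7 at 79 weeks). Reads were either single at 60 bp or paired at 150 bp, and RNA was purified with either of 2 kits, without a statement of which library got which. Set, instrument, kit and, for aged mice, age within the group cannot be told apart. Total reads ran from 12204573 to 14448283 in the earlier and from 19100690 to 30689439 in the later set. The smallest count behind any value of the 10 genes was 121 reads, a counting error of 9.09%, and the largest was 112589. All 14 genes taken as markers of uterine epithelium, stroma and muscle, such as Esr1, Pgr, Krt8, Myh11 and Hoxa10, were listed. The tables list the same genes, each with at least 10 reads in every library, so being listed could not differ between libraries. In 15 of 20 tables the column header named another sample than the one the table was attached to, and columns were taken by their header. The libraries in doubt as to age group, called doubtful below, are 5w replicate 3 and 8w replicate 3, whose columns lay in tables attached to samples of another age. The columns of aged replicates 2 and 5 lay in tables attached to aged samples of the other set. Their set, and so their age in weeks, thus also rests on the header. Aged replicate 3 was not analysed here. The labels do not say that the replicates were separate animals, so p-values measure the spread between these libraries, which may in part be technical.

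Class I molecules carry peptides cut from proteins of the cell's own interior to the cell surface, where CD8+ T cells and natural killer (NK) cells read them. The proteasome cuts the peptides, the TAP transporter moves them into the endoplasmic reticulum, and tapasin with its helper chaperones holds the empty molecule of heavy chain and β2-microglobulin until a fitting peptide is bound. Interferon gamma is known to raise most genes of the pathway, in part through NLRC5, which acts on a shared promoter module, and to swap the constitutive catalytic subunits of the proteasome for inducible ones.

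The promoter sequences are shown because the genes of the pathway are known to share that module and can be compared by eye. Windows of 250 bases before the gene start as RefSeq places it on GRCm38.p6 were at hand for 8 of the 10 genes, all but Tap2 and Nlrc5. GENCODE, whose coordinates are given further on, places some starts elsewhere, and the windows of H2-D1, Tapbp, Psmb8 and Psmb9 lie inside the gene as it is drawn there. Each was searched on both strands for AANNGAAA (a core of sites for interferon regulatory factors), TGACG (the cyclic AMP response element core found in the X2 box), CCAAT (the Y box, which reads ATTGG on the opposite strand) and the κB-like letters GGGA and CC separated by any 4 bases. The motifs were chosen with the sequences in view. Capitals mark every match, and overlapping matches run together. The windows lie at chr17:34000348-34000597 on the minus strand for H2-K1, at chr17:35262844-35263093 on the plus strand for H2-D1, at chr2:122147437-122147686 on the plus strand for B2m and at chr17:34187306-34187555 on the plus strand for Tap1.
H2-K1: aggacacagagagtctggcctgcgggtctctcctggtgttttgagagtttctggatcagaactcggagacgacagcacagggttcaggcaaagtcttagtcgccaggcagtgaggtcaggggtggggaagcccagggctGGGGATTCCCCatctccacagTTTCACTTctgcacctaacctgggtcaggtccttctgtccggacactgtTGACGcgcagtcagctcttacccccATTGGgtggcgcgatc
H2-D1: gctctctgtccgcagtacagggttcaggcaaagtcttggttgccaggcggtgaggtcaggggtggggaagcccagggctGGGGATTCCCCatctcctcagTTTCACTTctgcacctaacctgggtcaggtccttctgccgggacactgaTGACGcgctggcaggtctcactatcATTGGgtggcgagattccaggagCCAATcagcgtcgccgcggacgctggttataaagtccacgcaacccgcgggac
B2m: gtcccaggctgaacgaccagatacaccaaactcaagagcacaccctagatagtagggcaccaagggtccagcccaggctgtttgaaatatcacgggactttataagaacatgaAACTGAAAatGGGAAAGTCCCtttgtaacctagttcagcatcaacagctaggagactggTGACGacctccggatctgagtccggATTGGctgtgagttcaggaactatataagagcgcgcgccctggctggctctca
Tap1: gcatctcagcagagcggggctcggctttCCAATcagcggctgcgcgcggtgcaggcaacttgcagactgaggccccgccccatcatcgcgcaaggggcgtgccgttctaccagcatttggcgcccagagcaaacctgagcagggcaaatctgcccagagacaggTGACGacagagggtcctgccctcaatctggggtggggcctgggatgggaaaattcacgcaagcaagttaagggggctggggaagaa

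The windows of H2-K1, H2-D1 and B2m held all 4 motifs. In each, the κB-like and AANNGAAA matches came first, in that order in both heavy chain genes and in the opposite order in B2m, and TGACG and ATTGG followed. TGACG and ATTGG were separated by 20 bases in all 3. That spacing, read from the B2m window itself, was found in 30 of 32851 windows (0.0913%), those of these genes among them. The windows of H2-K1 and H2-D1 matched at 87.4% of 190 aligned bases, so they are not separate cases. The Tap1 window overlaps that of Psmb9, which is read the other way, by 225 bases, so both genes share 1 TGACG and 1 CCAAT match. Of the letters searched, TGACG was found in 5 of the 8 windows, against 17.8% of all windows, CCAAT in 6, against 33.8%, AANNGAAA in 3, against 21.3%, and the κB-like letters in 3, against 17.6%. TGACG and CCAAT stood together in 5 of 8, against 6.12%. The windows of Psmb8 and Psmb10 held none of these letters, and that of Tapbp only CCAAT. A match is a description of letters and not of a bound site.

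By GENCODE release M21 on GRCm38, 7 of the 10 genes lie on chromosome 17. Tapbp (33915899 to 33929292), H2-K1 (33996017 to 34000347), Psmb9 (34181987 to 34187764), Tap1 (34187553 to 34197225), Psmb8 (34197721 to 34201454), Tap2 (34203527 to 34216321) and H2-D1 (35262730 to 35267499) follow in that order. Psmb10 (105935735 to 105938444) and Nlrc5 (94434356 to 94527272) are on chromosome 8, and B2m (122147686 to 122153083) is on chromosome 2. Psmb9 and Tap1 overlap by 212 bases on opposite strands, and the library kit kept no strand. Of the exon length of Tapbp, 29.0% is shared with the neighbours Zbtb22 and Gm19412, and of that of Tap2, 18.5% with Gm20496 and Gm15821. The same comparison gave 14.7% for Psmb8, 5.79% for Psmb9 and 3.87% for Tap1. Stretches of 60 bases of the transcript that recur in transcripts of other genes made up 19.6% of Tapbp and 11.1% of Tap2, mostly shared with Gm19412 and Gm15821. They made up 9.74% of H2-D1 and 3.86% of H2-K1, in both cases shared in part with H2-Q1, H2-Q6 and H2-Q7, and 3.90% of Psmb8. Of the 70 such stretches of H2-K1, 63 recur in H2-D1. How far such reads move the levels was not tested. Zbtb22, the listed neighbour of Tapbp, did not pass the test in either comparison of aged uteri.

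RNA levels are given in counts scaled to a common library total (CPM), the unit of the deposited tables. Per kilobase of annotated exon, B2m was the most abundant of the 10 genes in aged uteri, at 1943 ± 673 CPM per kb (SD, n = 6). H2-K1 followed with 504 ± 129 and H2-D1 with 425 ± 142 CPM per kb. All genes were measured in the same libraries, so these SDs are no test of their order, which was not tested. Tapbp had 84.0 ± 38.3 and Psmb10 50.7 ± 14.5 CPM per kb, then Psmb8 21.9 ± 7.02. Psmb9 had 14.1 ± 4.62, Tap1 13.5 ± 9.44 and Tap2 12.3 ± 5.45 CPM per kb. Nlrc5 was lowest with 2.86 ± 1.51 CPM per kb. At 8 weeks B2m, H2-K1, H2-D1, Tapbp, Psmb10 and Psmb8 kept the same order, and Nlrc5 was again last. At 5 weeks mean H2-D1, with 266 ± 71.4 CPM per kb, stood above mean H2-K1, with 243 ± 62.9 CPM per kb (SD, n = 7). This order came from the earlier set, where H2-D1 had 344 and H2-K1 174 CPM per kb. In the later set it was reversed, with 235 for H2-D1 and 270 for H2-K1. It also rests on the exon length used, since before that division mean H2-K1 was higher, at 713 against 687 CPM.

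Whether aged uteri hold more class I RNA was asked of each young age in a fit over all 12791 genes. The fit was made by limma on log2(CPM + 1) with terms for age and set over the 20 libraries, and a gene was called at a Benjamini-Hochberg adjusted p under 0.05. Fold changes are on that scale, and their errors are limma's moderated standard errors. Both comparisons use the same 6 aged libraries, so their values are set side by side and are not independent.

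**Figure D1:**
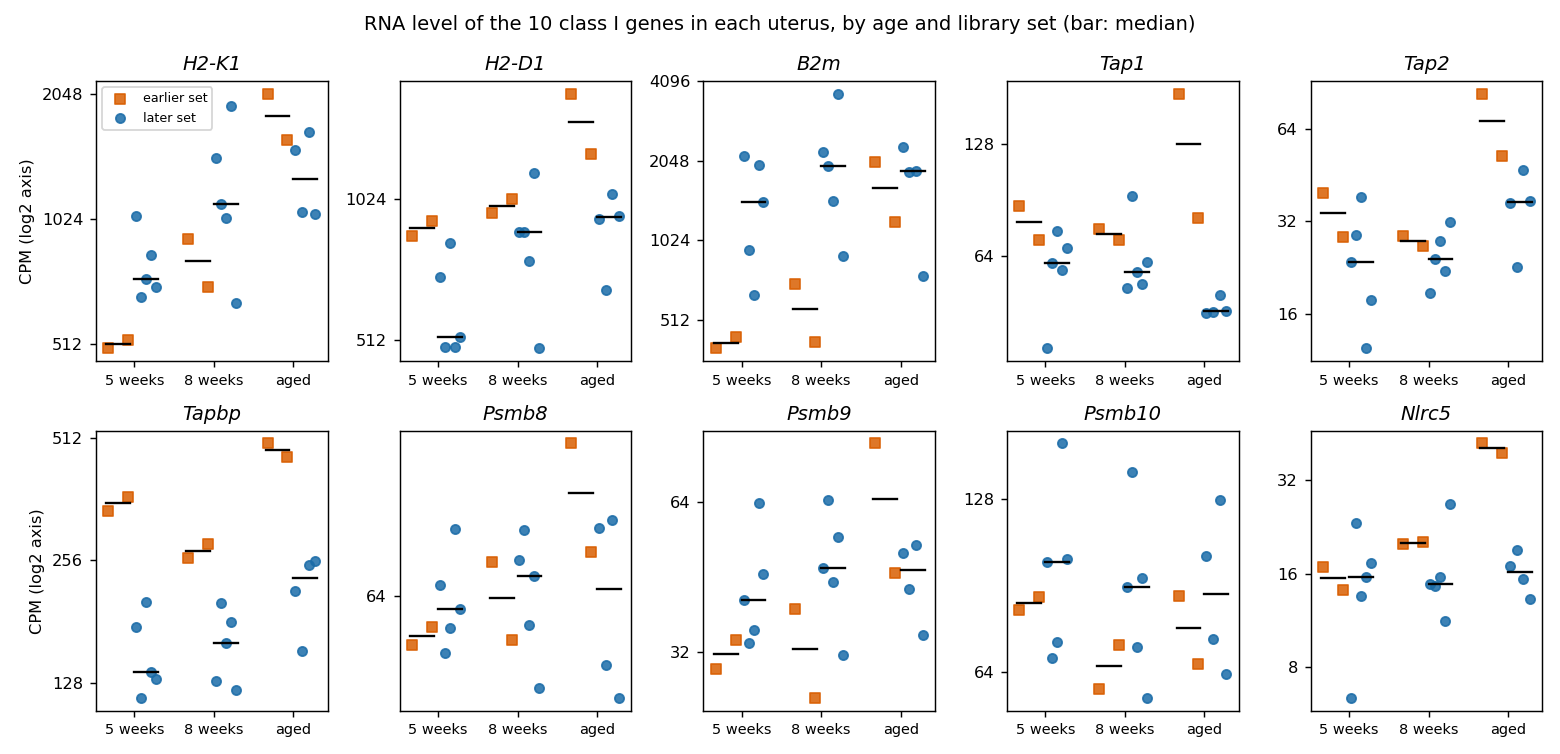
CPM on a log2 axis for each of the 10 genes in 20 uterus libraries, by age, with squares for the earlier and circles for the later set, and a bar at the median of each set. In the earlier set the aged squares lie above both 8-week squares for every gene but Psmb10, while the circles of the later set overlap between aged and 8 weeks for every gene but Tap1, whose aged circles are lower.

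Compared with 8-week uteri, aged uteri had more RNA of the TAP subunit Tap2, 1.65-fold, and of Tapbp, which encodes tapasin, 1.48-fold. These were 2 of the 10 genes called higher, against 8.64% of all genes, and 0 were called lower, against 8.53% (17.2% in either direction). The other 8 genes had log2 fold changes of -0.07 to 0.49, and the largest of these was that of H2-K1. The median over the 10 genes was 0.30, against 0.05 over all genes tested. Aged lay above 8 weeks without overlap in the earlier set for 9 genes, against 36.8% of all genes, and in the later set for 0 genes, against 2.07%. The median log2 fold change within the earlier set was 0.88, and within the later set it was 0.02.

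Compared with 5-week uteri, aged uteri had more RNA of H2-K1 (2.09-fold), H2-D1 (1.55-fold), Tap2 (1.65-fold) and Tapbp (1.41-fold). These 4 of 10 called higher stand against 12.7% of all genes, and 0 were called lower, against 9.41% (22.1% in either direction). The median over the 10 genes was 0.52 on the log2 scale, against 0.09 over all genes. Within the earlier set the median was 0.85, and within the later set 0.22. Aged lay above 5 weeks without overlap for 8 genes in the earlier set, against 38.7% of all genes, and in the later set for H2-K1 alone, against 3.07%.

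The log2 fold change was lower in the later than in the earlier set for 10 of 10 genes against 8 weeks and for 8 of 10 against 5 weeks. The share of all genes with that direction was not counted. Their median was 0.07 in the earlier and 0.03 in the later set against 8 weeks, and 0.09 and 0.08 against 5 weeks. Each gene's difference between the sets rests on the same 2 aged libraries of the earlier set, so the genes are not separate observations. A test of that difference, the interaction of age and set in limma, gave an unadjusted p under 0.05 for 4 genes against 8 weeks (H2-K1, B2m, Tap1 and Psmb9), where 8.35% of all genes had such a p with the smaller value in the later set. Against 5 weeks it did so for H2-K1, B2m, Tap1 and Nlrc5, beside 5.49% of all genes. After adjustment over all genes 0 of the 10 passed in either comparison, beside 3 of all 12791 genes (0.0235%) against 8 weeks and 0 (0%) against 5 weeks.

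**Figure D2:**
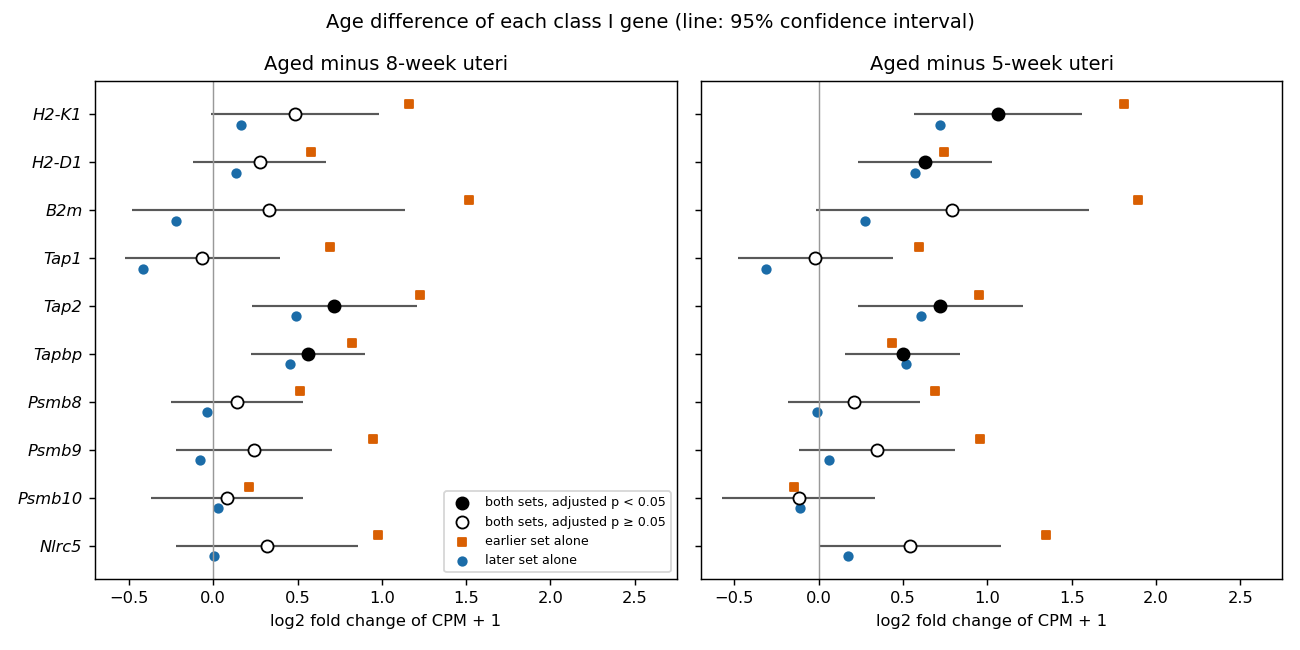
Log2 fold change of CPM + 1 for each gene, aged minus 8 weeks on the left and aged minus 5 weeks on the right, from all libraries (circles in black outline, filled where the adjusted p is under 0.05, with 95% confidence intervals) and within the earlier (squares) and later (small circles) set. Tap2 and Tapbp are filled on both sides, H2-K1 and H2-D1 on the right, and the square of B2m lies farthest right on both sides, at 1.52 and 1.89.

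Between 8 and 5 weeks 0 of the 10 genes were called, as for all 12791 genes (0%), of which 139 had an unadjusted p under 0.05 in limma (1.09%). H2-K1 was among those, with a log2 fold change of 0.58 ± 0.23 (unadjusted p = 0.0199). H2-D1 and B2m had 0.36 ± 0.18 and 0.46 ± 0.37, and the other 7 genes lay between -0.20 and 0.22.

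H2-K1 encodes one of the classical heavy chains. It stood at 499.5 and 523 CPM at 5 weeks in the earlier set and at 1038, 664, 732, 836 and 701 CPM in the later set. At 8 weeks H2-K1 had 917 and 701 CPM in the earlier and 1429.6, 1110.1, 1026, 1912 and 644 CPM in the later set. In aged uteri H2-K1 reached 2045 and 1580.0 CPM in the earlier and 1494, 1064, 1659 and 1051 CPM in the later set. All 6 aged libraries thus lay above all 7 libraries of 5 weeks, the only gene of the 10 for which this held, as it did for 1.65% of all genes. Against 8 weeks the groups overlapped, through 8w replicates 3, 4 and 6. Aged over 5 weeks the log2 fold change was 1.07 ± 0.24 (limma, adjusted p = 0.00382), or 1.81 among earlier and 0.72 among later libraries. Aged over 8 weeks it was 0.49 ± 0.24 (adjusted p = 0.165), with 1.16 and 0.17 within those sets. The call against 5 weeks held without any 1 library, at adjusted p of 0.00219 to 0.0132, and was lost in the later set alone (adjusted p = 0.156). Without both doubtful libraries it was 1.15 (adjusted p = 0.00318), and with columns attached by file 0.92 (adjusted p = 0.0230).

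H2-D1 is the other classical heavy chain of this strain. The lowest, median and highest library had 494, 698 and 919 CPM at 5 weeks. At 8 weeks H2-D1 had 491, 873 and 1166 CPM, and in aged uteri 656, 997 and 1724 CPM. The 3 ages overlapped, and 5 of 6 aged libraries lay above every library of 5 weeks. H2-D1 rose over 5 weeks by a log2 fold change of 0.63 ± 0.19 (limma, adjusted p = 0.0226), or 0.74 among earlier and 0.57 among later libraries. That call was lost without aged replicate 1 (0.55, adjusted p = 0.0604) and with columns attached by file (0.53, adjusted p = 0.146). Without both doubtful libraries H2-D1 had 0.67 over 5 weeks (adjusted p = 0.0258), and in the later set alone 0.57 (adjusted p = 0.204). Over 8 weeks H2-D1 had 0.27 ± 0.19 (adjusted p = 0.332).

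B2m encodes β2-microglobulin, the light chain of all class I molecules. At 5 weeks B2m had 400.0 and 441 CPM in the earlier and 2138, 941, 636, 1978 and 1436 CPM in the later set. The 8-week libraries held 703 and 422 CPM of B2m in the earlier and 2204, 1963, 1448, 3669 and 897 CPM in the later set. Aged uteri held 2030.1 and 1201 CPM in the earlier and 2304, 1859, 1878 and 752 CPM in the later set. The aged libraries of the earlier set lay above all young ones of that set, and those of the later set lay among the young ones. B2m had the largest standard error of the 10 genes. Its log2 fold change over 8 weeks was 0.33 ± 0.39 (limma, adjusted p = 0.591), or 1.52 among earlier and -0.22 among later libraries. Over 5 weeks it was 0.79 ± 0.39 (adjusted p = 0.145), and without aged replicate 7, the lowest aged library, it was 1.10 and passed (adjusted p = 0.0372). Without aged replicate 1 it was 0.54 over 5 weeks (adjusted p = 0.342) and 0.08 over 8 weeks (adjusted p = 0.922), and without aged replicate 7 it was 0.63 over 8 weeks (adjusted p = 0.240).

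The balance of the chains differed between sets. In the earlier set the ratio of H2-K1 to H2-D1 in CPM was 0.569 to 0.583 at 5 weeks, 0.682 to 0.958 at 8 weeks and 1.19 to 1.24 in aged uteri. In the later set it was 0.889 to 1.69 at 5 weeks, 1.27 to 1.64 at 8 weeks and 1.11 to 1.62 in aged uteri. The ages were apart in the earlier and overlapped in the later set. Since H2-K1 and H2-D1 share stretches of sequence, reads can be split unevenly between them, and the effect on this ratio was not tested. By the set term of the fit, which all ages share, B2m was 2.22-fold higher in the later than in the earlier set (limma, adjusted p = 0.00700). Mean B2m in the earlier and later set was 421 and 1426 CPM at 5 weeks and 562 and 2036 CPM at 8 weeks. In aged uteri it was 1616 and 1698 CPM, so the difference lay mainly in the young libraries. By the same term Tapbp was 0.48-fold, Tap1 0.64-fold, Nlrc5 0.68-fold and H2-D1 and Tap2 0.69-fold of the earlier set's level (adjusted p = 6.78e-06 to 0.0391). For Nlrc5 the difference lay mainly in aged uteri, with means of 40.7 CPM in the earlier and 16.1 CPM in the later set. At 5 weeks its means were 15.4 and 15.2 CPM, and at 8 weeks 20.1 and 16.6 CPM. Thus 1 of 10 was called higher between sets, against 20.5% of all genes, and 5 lower, against 38.3% (58.7% in either direction).

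Tap1 and Tap2 encode the subunits of the transporter that carries peptides into the endoplasmic reticulum. Tap2 had 39.7 and 28.6 CPM at 5 weeks in the earlier and 23.6, 28.8, 38.4, 12.4 and 17.8 CPM in the later set. At 8 weeks Tap2 had 28.8 and 26.6 CPM in the earlier and 18.8, 24.1, 27.6, 22.2 and 32.0 CPM in the later set. In aged uteri Tap2 had 83.2 and 52.4 CPM in the earlier and 36.9, 22.8, 47.0 and 37.3 CPM in the later set. Aged replicate 5 lay among the young libraries, and the other 5 aged libraries lay above every 8-week library. Tap2 rose by a log2 fold change of 0.72 ± 0.24 over 8 weeks (limma, adjusted p = 0.0411) and by 0.72 ± 0.24 over 5 weeks (adjusted p = 0.0330). The difference over 8 weeks was 1.23 among earlier and 0.49 among later libraries, and over 5 weeks it was 0.95 and 0.61. The call over 8 weeks was lost without any 1 of 8w replicates 1, 2, 3 and 6 or aged replicates 1, 2, 4, 6 and 7, at log2 fold changes of 0.59 to 0.74. The call over 5 weeks was lost without any 1 of 5w replicates 2, 6 and 7 or aged replicates 1, 2, 4 and 6, at 0.58 to 0.74. Without both doubtful libraries, 5w replicate 3 and 8w replicate 3, Tap2 had 0.67 over 8 weeks (adjusted p = 0.0899) and 0.73 over 5 weeks (adjusted p = 0.0457), and with columns attached by file it had 0.57 (adjusted p = 0.269) and 0.67 (adjusted p = 0.0972). Neither call was reached in the later set alone (adjusted p = 0.480 and 0.263).

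Tap1 was not called in any comparison. It had 36.1, 67.1 and 87.2 CPM as lowest, median and highest value at 5 weeks. At 8 weeks Tap1 had 52.5, 61.8 and 93.0 CPM, and in aged uteri 44.9, 48.0 and 175 CPM. The 2 aged libraries of the earlier set, with 175 and 80.9 CPM, lay above the 8-week libraries of that set, while the 4 of the later set, with 44.9, 45.2, 50.4 and 45.6 CPM, lay below all 5 of theirs, as they did for 3.16% of all genes. The log2 fold change over 8 weeks was -0.07 ± 0.22 (limma, adjusted p = 0.872), or 0.70 among earlier and -0.42 among later libraries. Over 5 weeks Tap1 had -0.02 ± 0.22 (adjusted p = 0.958). The ratio of Tap2 to Tap1 in CPM was 0.403 to 0.455 at 5 weeks, 0.375 to 0.380 at 8 weeks and 0.475 to 0.648 in aged uteri of the earlier set. In the later set it was 0.210 to 0.653 at 5 weeks, 0.260 to 0.517 at 8 weeks and 0.503 to 0.932 in aged uteri.

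Tapbp encodes tapasin, which bridges the transporter and the empty class I molecule. At 5 weeks Tapbp had 339.6 and 367 CPM in the earlier and 175, 118, 203, 136 and 131 CPM in the later set. At 8 weeks Tapbp stood at 259 and 281 CPM in the earlier and 129.5, 201, 160.1, 181 and 123 CPM in the later set. Aged uteri had 496 and 459 CPM of Tapbp in the earlier and 215, 154, 249 and 255 CPM in the later set. The sets differed more than the ages, and within the earlier set the aged libraries lay above all young ones. Tapbp rose by a log2 fold change of 0.56 ± 0.16 over 8 weeks (limma, adjusted p = 0.0229) and by 0.50 ± 0.16 over 5 weeks (adjusted p = 0.0336). The difference over 8 weeks was 0.82 among earlier and 0.45 among later libraries, and over 5 weeks it was 0.43 and 0.52. The call over 8 weeks was lost without 8w replicate 1, 2 or 3 or aged replicate 1, at 0.51 to 0.54. The call over 5 weeks was lost without 5w replicate 4, 6 or 7 or aged replicate 1, 2, 4, 6 or 7, at 0.43 to 0.50. Without both doubtful libraries Tapbp had 0.53 over 8 weeks (adjusted p = 0.0553) and 0.53 over 5 weeks (adjusted p = 0.0377), and with columns attached by file 0.47 (adjusted p = 0.363) and 0.51 (adjusted p = 0.198). In the later set alone neither passed (adjusted p = 0.3498 and 0.188).

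The inducible catalytic subunits of the proteasome were not called in any comparison. Psmb8, which replaces Psmb5, had 52.4, 57.5 and 81.0 CPM at 5 weeks, 46.4, 68.7 and 80.7 CPM at 8 weeks and 44.7, 77.9 and 109 CPM in aged uteri as lowest, median and highest value. Psmb9, which replaces Psmb6, had 29.6, 35.4 and 63.7 CPM, 25.9, 44.3 and 64.5 CPM and 34.6, 48.4 and 83.8 CPM in the same order. Psmb10, which replaces Psmb7, had 67.8, 86.4 and 159.5 CPM, 57.7, 71.2 and 142 CPM and 63.5, 79.95 and 128 CPM. The ages overlapped for all 3. Over 8 weeks the log2 fold changes were 0.14 ± 0.19 for Psmb8, 0.24 ± 0.22 for Psmb9 and 0.08 ± 0.22 for Psmb10 (limma, adjusted p = 0.638, 0.475 and 0.832). Over 5 weeks they were 0.21 ± 0.19, 0.35 ± 0.22 and -0.12 ± 0.22 (adjusted p = 0.443, 0.269 and 0.726). For Psmb9 the log2 fold change over 8 weeks was 0.95 in the earlier and -0.08 in the later set. The 95% intervals of these differences over 8 weeks reached 0.53, 0.71 and 0.54, so changes of that size are within the error.

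Of the constitutive partners, 1 of 3 fell over 8 weeks, against 8.53% of all genes, and 2 of 3 over 5 weeks, against 9.41%. Psmb7 had a log2 fold change of -0.55 ± 0.18 over 8 weeks (limma, adjusted p = 0.0433) and of -0.69 ± 0.18 over 5 weeks (adjusted p = 0.0115). Its call over 8 weeks was lost in 10 of 20 fits that each left out 1 library, at adjusted p of up to 0.114. Psmb5 fell against 5 weeks (-0.56 ± 0.16, adjusted p = 0.0165) and had -0.42 ± 0.16 over 8 weeks (adjusted p = 0.0707). Psmb6 had -0.34 ± 0.17 over 8 weeks (adjusted p = 0.167) and -0.39 ± 0.17 over 5 weeks (adjusted p = 0.0956).

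The ratio of each inducible to its constitutive partner was tested by an exact permutation of the ages within sets, two-sided, over 756 rearrangements in each comparison with aged uteri and a smallest possible p of 0.00132, adjusted over 9 tests. Psmb10 over Psmb7 had a median of 0.565 in aged uteri (0.427 to 0.933), against 0.394 at 5 weeks (0.308 to 0.447). This was a log2 difference of 0.56 (exact p = 0.00397, adjusted p = 0.0357), or 0.82 among earlier and 0.44 among later libraries, and it was the only ratio called. Against the 8-week median of 0.346 (0.289 to 0.643) the difference was 0.64 (exact p = 0.0278, adjusted p = 0.0625), and without 8w replicate 4 it was 0.78 and passed. Psmb8 over Psmb5 had a median of 0.418 at 5 weeks, 0.427 at 8 weeks and 0.621 in aged uteri. Its differences were 0.56 over 8 weeks (exact p = 0.114, adjusted p = 0.205) and 0.76 over 5 weeks (exact p = 0.0265, adjusted p = 0.0625). Over 8 weeks that was 1.58 among earlier and 0.11 among later libraries. Psmb9 over Psmb6 had a median of 0.190 at 5 weeks, 0.242 at 8 weeks and 0.297 in aged uteri. Its differences were 0.59 over 8 weeks (exact p = 0.167, adjusted p = 0.25) and 0.73 over 5 weeks (exact p = 0.0146, adjusted p = 0.0625). Over 8 weeks that was 1.89 among earlier and 0.0012 among later libraries, and 0.29 without aged replicate 1. The call on Psmb10 over Psmb7 was lost without any 1 of 5w replicates 1, 2, 3, 4, 5 and 7 or aged replicates 4 and 6, at 0.51 to 0.60. Between 8 and 5 weeks the differences were 0.21 for Psmb8 over Psmb5, 0.16 for Psmb9 over Psmb6 and -0.07 for Psmb10 over Psmb7, and 0 were called.

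**Figure D3:**
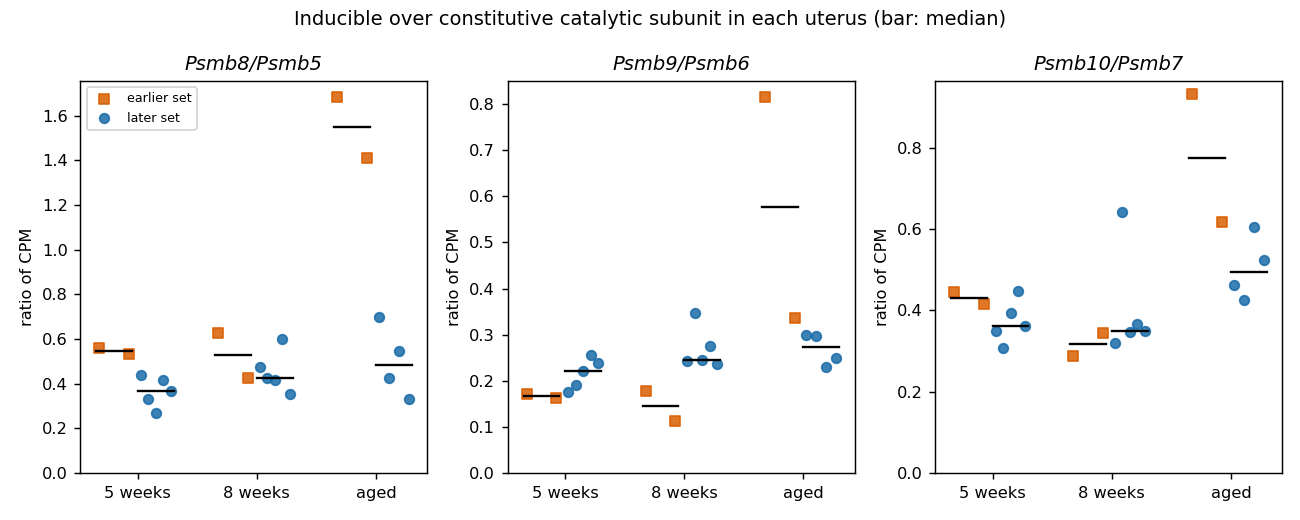
Ratio of the CPM of each inducible subunit to that of its constitutive partner in 20 uterus libraries, by age, with squares for the earlier and circles for the later set and a bar at the median of each set, on linear axes from 0. The highest aged square lies at 1.68 for Psmb8/Psmb5, at 0.815 for Psmb9/Psmb6 and at 0.933 for Psmb10/Psmb7, and the aged circles of the later set overlap the young ones in each panel.

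Nlrc5, the regulator that is known to switch on class I genes, had the lowest level per kilobase of the 10. In the earlier set it stood at 16.7 and 14.1 CPM at 5 weeks, 19.99 and 20.3 CPM at 8 weeks and 42.1 and 39.3 CPM in aged uteri. In the later set it stood at 6.33, 23.3, 13.5, 15.6 and 17.3 CPM at 5 weeks, 14.8, 14.6, 15.6, 11.2 and 26.8 CPM at 8 weeks and 16.9, 19.0, 15.4 and 13.3 CPM in aged uteri. The aged libraries of the earlier set were above every other library, and those of the later set lay within the range of the young ones. The log2 fold change over 8 weeks was 0.32 ± 0.26 (limma, adjusted p = 0.414) and over 5 weeks 0.54 ± 0.26 (adjusted p = 0.135).

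The 10 genes varied together to different degrees. Across the 20 libraries, with each set centred on its own mean, the correlation of each gene with the mean of the other 9 was highest for Psmb9 (Pearson r = 0.858), Psmb8 (0.804) and H2-K1 (0.802). It was lowest for Nlrc5 (0.224), Psmb10 (0.326), Tap1 (0.411) and Tap2 (0.422). These values describe libraries that share their scaling and, in part, their age. The mean standardized level of the 10 genes ran from -0.66 to 0.04 at 5 weeks, from -0.77 to 0.75 at 8 weeks and from -0.29 to 1.84 in aged uteri, with aged replicate 1 highest. The genes besides the 10 whose pattern was most like that mean over the 20 libraries were Mmp7 (r = 0.876), a metalloprotease of epithelia, H2-T23 (0.873), the heavy chain of Qa-1, Hscb (0.871), Rspo3 (0.864), Smim14 (0.860) and Ctsa (0.850).

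Class I-like genes, which encode heavy chains other than H2-K and H2-D, were measured for 15 of 28 listed names. Over 8 weeks 4 of the 15 rose, against 8.64% of all genes, and 0 fell, with a median log2 fold change of 0.51, against 0.05 over all genes. They were Cd1d1 (1.22 ± 0.35, limma adjusted p = 0.0226), which presents lipids, Mill2 (0.87 ± 0.28, adjusted p = 0.0384), H2-T23 (0.95 ± 0.31, adjusted p = 0.0416), which encodes Qa-1, a ligand of NK cell receptors, and Mr1 (0.72 ± 0.24, adjusted p = 0.0432), which presents vitamin B metabolites. With 1 library left out, the call over 8 weeks was lost in 12 of 20 fits for H2-T23, in 10 for Mr1, in 7 for Mill2 and in 4 for Cd1d1. Over 5 weeks 10 of 15 rose, against 12.7% of all genes, and 0 fell, with a median of 0.82, against 0.09 over all genes. Among the 10 were H2-Q4, H2-Q5, H2-Q6 and H2-Q7, named here after their values were seen, with log2 fold changes of 1.07 to 1.86. H2-Q6 and H2-Q7 share stretches of sequence with H2-K1 and H2-D1, so their reads can be split unevenly. Over 8 weeks H2-T23 had 1.83 within the earlier and 0.55 within the later libraries, and Cd1d1 had 2.12 and 0.78.

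Of the loading chaperones other than tapasin, 4 of 5 fell over 8 weeks, against 8.53% of all genes. They were Pdia3, the disulfide isomerase bound to tapasin (-0.60 ± 0.14, limma adjusted p = 0.00588), Canx (-0.55 ± 0.14, adjusted p = 0.0127), Calr (-0.62 ± 0.18, adjusted p = 0.0216) and Uggt1, the folding sensor (-0.49 ± 0.15, adjusted p = 0.0305). Pdia3 had -0.61 in the earlier and -0.59 in the later set. Tapbpl, the tapasin-like editor of peptides, had 0.42 ± 0.15 (adjusted p = 0.0605). Over 5 weeks 2 of the 5 fell, Canx and Pdia3, against 9.41% of all genes, while Calr (adjusted p = 0.0740) and Uggt1 (adjusted p = 0.118) did not pass. The calls over 8 weeks were lost for Uggt1 in 6 and for Calr in 2 of 20 fits without 1 library, and for Pdia3 and Canx in 0. All 4 chaperones that fell serve many secreted and membrane proteins besides class I.

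Of the peptidases and of the proteasome activators and assembly factors, 0 were called higher. Over all genes 8.53% were called lower over 8 weeks and 9.41% over 5 weeks. Of 8 peptidases 1 fell over 8 weeks, Tpp2 of the cytosol (-0.48 ± 0.13, limma adjusted p = 0.0138). Over 5 weeks 3 fell. Of 6 proteasome activators and assembly factors 1 fell over 8 weeks, the assembly factor Pomp (-0.48 ± 0.16, adjusted p = 0.0480), and 2 over 5 weeks. The call on Pomp over 8 weeks was lost in 15 of 20 fits without 1 library, and that on Tpp2 in 0. The interferon gamma-inducible activator genes Psme1 and Psme2 had 0.12 ± 0.19 and -0.36 ± 0.20 over 8 weeks and were not called.

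Of 18 measured genes for transcription factors and interferon gamma signalling, 2 rose and 1 fell over 8 weeks, with a median log2 fold change of 0.02. These shares lie near the 8.64% of all genes called higher and the 8.53% called lower. Ciita, the class II counterpart of Nlrc5, rose (1.06 ± 0.27, limma adjusted p = 0.0113), and so did Rfxank (0.53 ± 0.13, adjusted p = 0.0116), a subunit of the RFX complex. Socs1, an inhibitor of interferon signalling, fell (-0.89 ± 0.22, adjusted p = 0.0105). Over 5 weeks Ciita, Rfxank, Irf8 and Ifngr1 rose and Socs1 fell. These 4 and 1 of 18 stand against 12.7% of all genes called higher and 9.41% called lower. The median over the 18 genes was -0.12 over 5 weeks, against 0.09 over all genes. The other RFX subunits were not called, with 0.26 ± 0.23 for Rfx5 and 0.15 ± 0.16 for Rfxap over 8 weeks. Irf1 (0.13 ± 0.18), Irf2 (0.29 ± 0.31), Irf8 (0.63 ± 0.24), Irf9 (0.06 ± 0.19), Ifngr1 (0.29 ± 0.17) and Ifngr2 (-0.08 ± 0.22) were not called over 8 weeks either. Nor were Jak1 (-0.17 ± 0.18), Jak2 (-0.03 ± 0.27), Creb1 (-0.15 ± 0.15), Nfya (-0.39 ± 0.26), Nfyb (-0.37 ± 0.19) and Nfyc (-0.10 ± 0.15). The gene for interferon gamma itself, Ifng, was not analysed here.

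Among 28 interferon-stimulated genes 0 rose over 8 weeks and 2 fell, Gbp9 (-0.89 ± 0.30, limma adjusted p = 0.0441) and Mx1 (-1.26 ± 0.42, adjusted p = 0.0450). Over 5 weeks 0 rose and 3 fell, Isg15, Mx1 and Ddx58. The counts of genes that fell lie near the shares of all genes called lower, 8.53% and 9.41%, and the calls on Gbp9 and Mx1 over 8 weeks were each lost in 13 of 20 fits without 1 library. The median log2 fold change was -0.26 over 8 weeks and -0.68 over 5 weeks. Over 8 weeks the median was 0.29 among earlier and -0.51 among later libraries, beside 0.07 and 0.03 over all genes. Among the genes that differed most between sets, named after their values were seen, Gbp2 had 2.34 among earlier and -0.41 among later libraries, Gbp5 had 2.25 and -0.15, and Iigp1 had 2.19 and -0.88. Gbp9 and Mx1 were below 0 in both sets, with -1.11 and -1.37 among earlier and -0.79 and -1.19 among later libraries. The 2 aged libraries of the earlier set also held the highest Nlrc5, and a link was not tested. Over 5 weeks the median of the 28 genes was -0.79 among earlier and -0.68 among later libraries. All 6 class II genes rose in both comparisons, against 8.64% of all genes over 8 weeks and 12.7% over 5 weeks. Their log2 fold changes were 1.09 to 1.66 over 8 weeks and 1.58 to 2.41 over 5 weeks. Over 8 weeks their median was 1.95 among earlier and 1.01 among later libraries. All 6 calls over 8 weeks were lost in the later set alone, and all but that of Cd74 with columns attached by file. That of H2-Aa was also lost in 7 of 20 fits without 1 library.

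**Figure D4:**
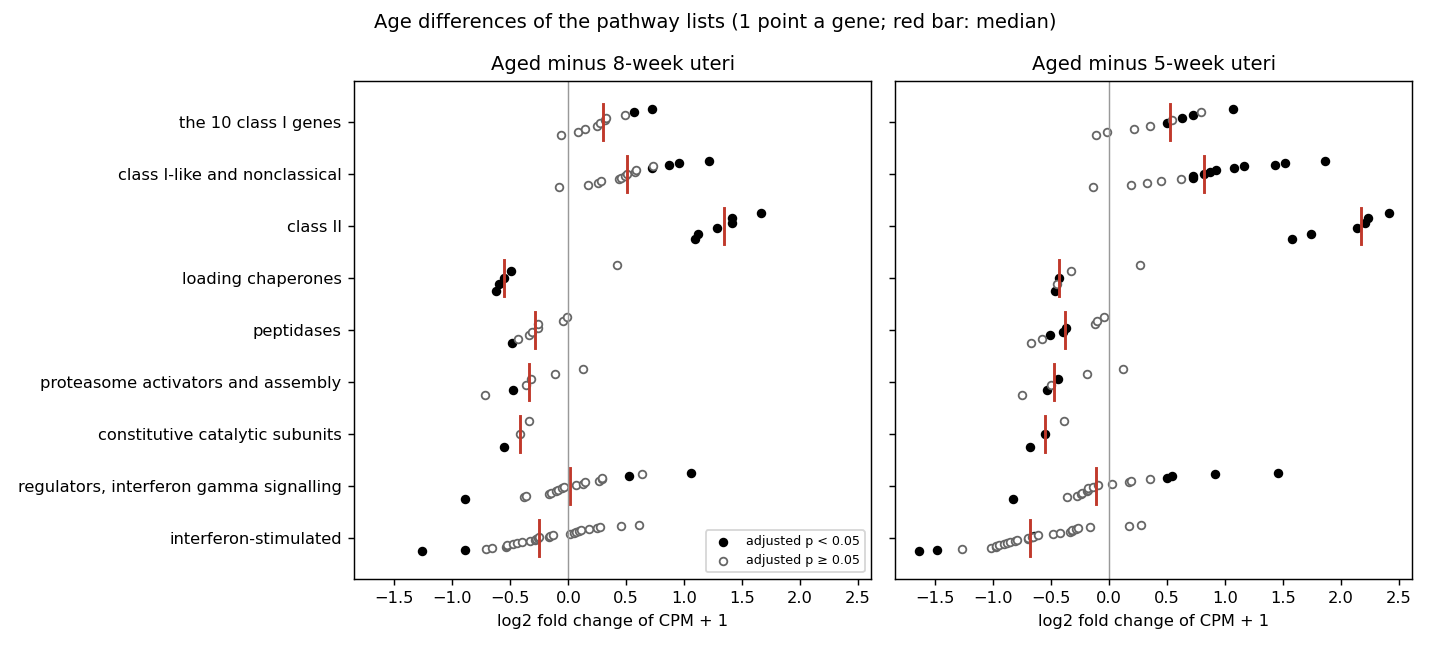
Log2 fold change of CPM + 1 for each measured gene of the 10 class I genes and 8 lists around them, aged minus 8 weeks on the left and aged minus 5 weeks on the right, filled where the adjusted p is under 0.05, with a red bar at the median of each list. The class II points lie at 1.09 to 1.66 on the left and 1.58 to 2.41 on the right, and the median of the loading chaperones is -0.55 on the left and -0.43 on the right.

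Of the 25 genes of these and the marker lists called over 8 weeks, 0 kept their call under every other setting, though 0 changed sign under any. Of the 40 called over 5 weeks 7 kept it, and 0 changed sign. Leaving out single libraries is not counted in these numbers.

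White blood cells carry more class I than most cells, and in whole uterus fewer cells of a type and less RNA per cell cannot be told apart. The summed level of 8 pan-leukocyte markers was 335 to 909.9 CPM at 5 weeks, 351 to 1012 CPM at 8 weeks and 661 to 921 CPM in aged uteri. Within the earlier set it was 335 to 345 CPM at 5 weeks, 351 to 579 CPM at 8 weeks and 711 to 921 CPM in aged uteri, and within the later set the ages overlapped. Of these 8 genes 1, Laptm5 of lysosomes, was called higher in each comparison, over 8 weeks by 1.43 ± 0.37 (limma, adjusted p = 0.0124). That count lies near the share of all genes called higher, 8.64% over 8 weeks and 12.7% over 5 weeks. The median log2 fold change of the 8 genes was 0.14 over 8 weeks and 0.22 over 5 weeks. Macrophage and dendritic cell markers, of which 9 of 12 were listed, summed to 337 to 906 CPM at 5 weeks, 344 to 1720 CPM at 8 weeks and 473 to 1608 CPM in aged uteri. Within the earlier set these sums were 337 to 502, 344 to 525 and 764 to 1072 CPM in the same order. Within the later set the ages overlapped. Csf1r, the receptor of macrophage growth factors, was called higher over 8 weeks (0.95 ± 0.32, adjusted p = 0.0453), as 1 of the 9, against 8.64% of all genes, and 4 of the 9 were over 5 weeks, against 12.7%. The call on Csf1r over 8 weeks was lost in 13 of 20 fits without 1 library. T and NK cell markers, of which 7 of 15 were listed, summed to 12.4 to 471 CPM at 5 weeks, 19.5 to 304 CPM at 8 weeks and 23.5 to 158 CPM in aged uteri. Of these 7 genes 0 were called over 8 weeks, with a median log2 fold change of -0.71. Over 5 weeks the median was -0.62, and Cd2 alone was called (0.92 ± 0.31, adjusted p = 0.0403), a call lost in 8 of 20 fits without 1 library. The other 6, Nkg7, Gzmb, Prf1, Klrd1, Klrk1 and Ncr1, had values below 0 in both comparisons, down to -1.85 ± 0.91 over 8 weeks (adjusted p = 0.168) and -2.05 ± 0.91 over 5 weeks (adjusted p = 0.110) for Gzmb, a granzyme. Over 5 weeks these 6 had 0.14 to 1.99 among earlier libraries and -3.04 to -1.01 among later ones. Cd3d, Cd3e, Cd3g, Cd4, Cd8a, Cd8b1, Trac and Gzma were not among the listed genes, and neither were Cd79a and Ms4a1 of B cells. Not being listed does not show that their RNA was absent from every library. The B cell marker that was listed, Cd79b, had 3.10 to 13.5 CPM at 5 weeks, 2.68 to 14.6 CPM at 8 weeks and 5.56 to 40.9 CPM in aged uteri, and was not called. The 6 endothelial markers summed to 95.4 to 452 CPM at 5 weeks, 121 to 472 CPM at 8 weeks and 172 to 377 CPM in aged uteri, with 0 called. Within the earlier set their sums were 95.4 to 235, 121 to 170 and 291 to 374 CPM in that order. The ages overlapped within the later set. Of the 14 uterine markers only Foxa2, a factor of gland cells, was called, higher in both comparisons. Over all genes 8.64% were called higher over 8 weeks and 12.7% over 5 weeks. The part of these cells in the class I levels was not tested.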

How the data were processed

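Per the labels, RNA of whole uterus was sequenced from NEBNext Ultra libraries, which keep no strand. Tools given in the submitters' processing notes, with neither version nor role, are featureCounts, STAR, edgeR and fastp, and the build is GRCm38. The deposited values are CPM, scaled to the sum over the 12791 listed genes. Library totals and read numbers were read back from the steps of the deposited values, of which 100% came out whole within 1e-06 when the lowest value of a library was taken as 10 to 12 reads, the smallest number for which this held. Numbers were held in 20 of 21 deposited tables, and the header of a column, not the sample its table is attached to, decided its group. Per-gene values were tested as log2(CPM + 1) with limma 3.58.1 in R 4.3.3 (trend of the variance, terms for age and set, all 20 libraries), with Benjamini-Hochberg adjustment over 12791 genes. The procedure was tested on simulated data. Subunit ratios were tested by exact permutation within sets in R. Exons and transcripts are those of GENCODE M21, promoters those of RefSeq on GRCm38.p6.

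The members, lists and tests were chosen with earlier results of these data known. Named were all 10 genes, up to 4 genes per list with the smallest adjusted p over 8 weeks, every constitutive subunit and regulator except 1 that is not reported here, and the 6 genes of most similar pattern. Members of a list that were called only over 5 weeks were named, where given, after their values were seen. Other settings tried were the pseudocount, a filter on low values, the set term, the replicate number as a block, columns by file, each set alone, 2 other scalings and leaving out libraries. Leaving out 5w replicate 3 with 8w replicate 3 was added after seeing the data. A count model on these reads was planned and not run. Counting errors cover counting alone.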

Additional observations from a re-analysis of the deposited data

Results flagged for a closer look

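In 6 of 39 groups of 6 or 7 values, the highest library stood farther from the next than a Dixon test at the 95% level allows. Chance gives about 1 in 20 only for separate groups of normally distributed values. Here untransformed values of both sets were pooled and the groups shared libraries, so the 6 cannot be set against that rate. Aged replicate 1, of the earlier set, was such a library for 3 measures. It had 175 CPM of Tap1, against 80.9 CPM in the next aged library, 83.8 CPM of Psmb9, against 52.4 CPM in the next, and a Psmb9/Psmb6 ratio of 0.815, against 0.337. Psmb10 stood at 160 CPM in 5w replicate 6, against 100.4 CPM in the next 5-week library. In 8w replicate 4 Psmb10 stood at 142 CPM, against 93.1 CPM in the next 8-week library, and the Psmb10/Psmb7 ratio at 0.643, against 0.367. Why these libraries stood apart was not tested. The calls on Tap2, Tapbp and H2-D1 that were lost without aged replicate 1 are given with those genes.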

How the results depend on the processing

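The 10 class I genes kept direction and side of the threshold in 282 combinations of gene, setting and comparison other than leave-one-out, lost a call in 27, gained 1 in 5 and changed sign in 16. The sign changes were small values or single sets: Tap2 between 8 and 5 weeks (-0.0066 with a pseudocount of 5, -0.28 in the earlier set alone, -0.031 with quantile normalization, -0.033 with median centring), Tap1 between 8 and 5 weeks (-0.00065 by file, -0.10 in the earlier set, -0.036 without 5w replicate 3 and 8w replicate 3), Tap1 over 5 weeks (0.011 without the set term, 0.59 in the earlier set) and over 8 weeks (0.70 in the earlier set), and Tapbp between 8 and 5 weeks (0.045 by file, 0.063 in the later set). In the later set alone B2m (-0.22), Psmb8 (-0.035) and Psmb9 (-0.081) over 8 weeks and Psmb8 over 5 weeks (-0.0098) changed sign, and so did Psmb10/Psmb7 between 8 and 5 weeks (0.083). The cause was not tested. Without the set term 969 genes were called over 8 weeks (500 higher, 469 lower) and 1380 over 5 weeks, with 0 and 1 of the 10. By file 565 were called over 8 weeks, with 0 of the 10, and 1 of the 10 over 5 weeks. The later set alone gave 183 (51 higher, 132 lower) and 523 genes, with 0 and 0 of the 10, and the earlier set alone 3613 over 8 weeks (1922 higher, 1691 lower), with 5 of the 10, from fewer libraries. Without 5w replicate 3 and 8w replicate 3, 0 of the 10 were called over 8 weeks, and median centring left 2 over 5 weeks. The log2 difference of Psmb10/Psmb7 over 5 weeks was 0.49 by file (exact permutation, adjusted p = 0.188) and 0.44 in the later set alone (adjusted p = 0.214). Leaving out each library gave 1309 to 2617 genes over 8 weeks (1309 without aged replicate 1, 1358 without 8w replicate 2, 1454 without 8w replicate 1) and 1982 to 3294 over 5 weeks, with 0 to 2 and 1 to 4 of the 10, and log2 ratio differences of 0.46 to 0.62 for Psmb10/Psmb7 over 5 weeks, 0.50 to 0.78 for Psmb10/Psmb7 over 8 weeks, 0.65 to 0.92 for Psmb8/Psmb5 over 5 weeks and, for Psmb9/Psmb6, 0.48 to 0.83 over 5 weeks and 0.29 to 0.70 over 8 weeks. Such omissions took Tap1 over 8 weeks to -0.29 to 0.050, Psmb10 over 8 weeks to -0.026 to 0.21, Tap1 over 5 weeks to -0.24 to 0.050, and, between 8 and 5 weeks, Tap1 to -0.073 to 0.12, Tap2 to -0.14 to 0.13 and Tapbp to -0.14 to 0.00037.

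With the replicate number as a block in place of the set term, 0 of the 10 genes were called over 8 weeks and 2 over 5 weeks. In 16 pairs, with replicates 1 and 2 counted once because their deviations mirror each other, the deviations of same-numbered libraries correlated at -0.51 to 0.28, over 0.1 in 8. As this was not so in every pair, the numbers were not taken as a pairing. A count model on recovered reads was not run.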
